A study of Mus musculus with 4 samples.

Results

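The cells described here are monocytes of the mouse mammary gland and of mammary tumours, chosen cell by cell from their counted RNA molecules (UMIs). A cell was taken when it had at least 500 detected genes, at most 10% mitochondrial UMIs, no UMI of Epcam, Cd3e or Cd79a (markers of epithelial, T and B cells), at least 3 UMIs of Lyz2, C1qa, C1qb and C1qc together under 0.05% of its UMIs, S100a8 and S100a9 together under 1%, and at least 3 UMIs of Ly6c2, Plac8, Ear2, Ace and Adgre4 summed. This gave 267 cells, 159 of 4668 that passed the gene and mitochondrial limits in a premalignant gland library at 5 months, 36 of 2640 in tumour 1 and 72 of 1765 in tumour 2. A premalignant library at 2 weeks, which was sorted for epithelial cells, held 0 of 1301. A monocyte was called classical when its Ly6c2 UMIs were at least as many as those of Ear2, Ace and Adgre4 together (160 cells), and nonclassical otherwise (107 cells). All of these genes chose the cells, so their values below are a description and were not tested.

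All animals were female mice of mixed genetic background with floxed Trp53 and Brca1 alleles and the R26Y reporter (Trp53L/L;Brca1L/L;R26Y), given Ad-K8-Cre into the mammary duct, and every library carries the label Trp53/Brca1-null. Keratin 8 is a luminal epithelial keratin, so the Cre was aimed at epithelial cells and not at leukocytes. The 5 months library mixed sorted YFP+ mammary epithelial cells with sorted CD45+ leukocytes, whereas each tumour library came from DAPI- live cells of 1 tumour mass. How many mice a library came from, their age and the mixing ratio at 5 months are not in the labels, and no untreated gland was included. There is 1 library at 5 months and there are 2 tumours, so the tumour and premalignant states cannot be told apart from the sort and the library.

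Monocytes are blood phagocytes made in the bone marrow. Classical mouse monocytes carry much Ly6C and the chemokine receptor Ccr2, enter inflamed tissue and can become macrophages there. Nonclassical monocytes carry little Ly6C, depend on the transcription factor Nr4a1 and patrol the vessel wall. In tumours, classical monocytes are a known source of tumour-associated macrophages.

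The genes that had to be present in a cell lie apart in the genome. In GRCm38, Ly6c2 (a Ly6C surface antigen) spans chr15:75108158-75111970 on the minus strand, Plac8 spans chr5:100553725-100572245 on the minus strand, and Ear2 (an eosinophil-associated ribonuclease) spans chr14:44102654-44103534 on the plus strand. Ace (angiotensin-converting enzyme) spans chr11:105967945-105989964, Adgre4 (an adhesion receptor) spans chr17:55749984-55853662, both on the plus strand, and Lyz2 (lysozyme) spans chr10:117277331-117282321 on the minus strand. Ly6c2 has a close copy, Ly6c1, at chr15:75044018-75048830 on the minus strand, which is known from endothelial cells. The 2 coding sequences have 393 bases each and are identical at 384 of them (97.7%). Positions 1 to 120 of both, counted from the start codon in the GENCODE M21 transcripts Ly6c2-201 and Ly6c1-201, are shown because the monocyte gate counts 1 copy and not the other. Capitals mark the 6 bases that differ.
Ly6c2: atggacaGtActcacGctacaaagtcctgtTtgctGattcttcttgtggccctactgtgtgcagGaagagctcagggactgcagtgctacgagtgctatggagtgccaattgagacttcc
Ly6c1: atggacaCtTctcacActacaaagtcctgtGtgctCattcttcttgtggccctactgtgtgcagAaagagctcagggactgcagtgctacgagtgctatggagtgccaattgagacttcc
A 3' library reads the transcript end, where the last 300 bases of the pair are 93.8% identical, so some reads could be assigned to either copy or to neither. Ear2 has the same difficulty: its coding sequence is 95.3% identical to that of Ear1, 97.0% to Ear10 and 87.8% to Ear6. Values of Ly6c2 and Ear2 are therefore uncertain by an amount the counts do not show.

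The label was checked first, and it did not hold for part of tumour 1. Of its 36 members, 17 were rich in RNA of connective tissue: each had 43 to 597 UMIs of 8 fibroblast and endothelial genes (median 225), against at most 3 in the other 19. Col3a1 (a fibrillar collagen) had 1621 UMIs and Col1a1 1004 UMIs in these 17 cells, against 1 and 0 in the other 19. The 17 cells held 0 to 17 UMIs (median 1) of 6 general leukocyte genes (Ptprc, Tyrobp, Fcer1g, Laptm5, Coro1a and Cd52), and 3 to 5 UMIs of Lyz2. They are called collagen-rich cells here and are given no other name. Their Ly6c1 UMIs numbered 126, whereas the remaining tumour 1 members had 1 and the 5 months and tumour 2 members had none, and they carried all 62 Ace UMIs of the tumour 1 members. The collagen-rich cells were 14 of the 16 nonclassical and 3 of the 20 classical members of tumour 1, and held 60.8% of the UMIs of its members.

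**Figure D1:**
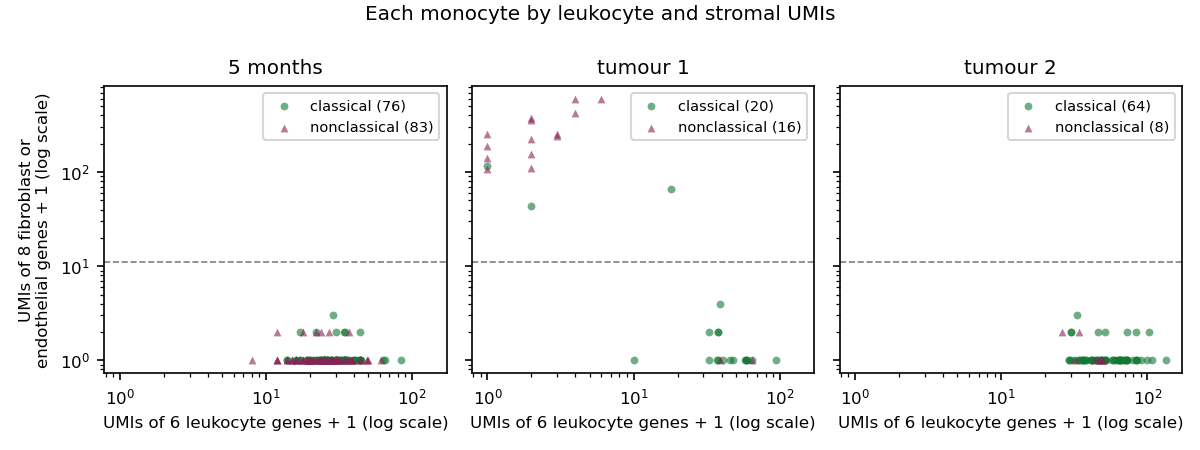
UMIs of 6 leukocyte genes plus 1 (x, log axis) against UMIs of 8 fibroblast and endothelial genes plus 1 (y, log axis) in each member cell of 5 months, tumour 1 and tumour 2, with classical and nonclassical cells in different colours and a dashed line at 10 UMIs. In tumour 1, 17 members lie above the line at low leukocyte counts, and no member of 5 months or tumour 2 does.

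Lysozyme RNA was also found outside myeloid cells of tumour 1. At least 3 Lyz2 UMIs were found in 44.2% (exact 95% interval 39.6 to 48.8) of 471 tumour 1 cells with an Epcam UMI, against 6.05% (4.43 to 8.04) of 727 such cells at 5 months and 11.8% (9.37 to 14.6) of 618 in tumour 2. The median depth of these cells was 12880, 4175 and 8191 UMIs. All cells of tumour 1 with at least 10 UMIs of the fibroblast and endothelial genes numbered 207, of which 33.3% had at least 3 Lyz2 UMIs, 40.1% an Ace UMI and 43.0% a Plac8 UMI. The Lyz2 limit of 3 UMIs was thus often reached by tumour 1 cells with markers of another type. The parts of free RNA, doublets and depth in this, and in the gene results below, were not tested. Levels in T cells of the same library are given beside several genes. These T cells had a Cd3e UMI and no UMI of Lyz2, Epcam or Cd79a (1075, 9 and 94 cells). Because cells with Lyz2 UMIs were left out, their values may understate free myeloid RNA. In tumour 1, 21 cells had Cd3e and neither Epcam nor Cd79a, and 33.3% of these had at least 3 Lyz2 UMIs.

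The other 250 members carried leukocyte RNA. The 6 leukocyte genes summed to 7 to 83 UMIs per cell at 5 months (median 25) and to 9 to 93 in the 19 remaining tumour 1 cells (median 40). The classical list of 14 genes (such as Ly6c2, Ccr2 and Fn1) summed to 6031 CPM (UMIs of a gene scaled to a common total per library) at 5 months against 5860 in tumour 1 and 9624 in tumour 2. Chil3, a member of this list, alone makes up a large part of the tumour 2 sum, and its values are given below. The 20-gene nonclassical list summed to 2308, 617 and 840 CPM, and the 14-gene macrophage list to 1246, 8276 and 4145 CPM. Macrophages chosen by at least 0.2% C1q had 44575 CPM of the macrophage list at 5 months. These sums hold genes of the gate, 2 in the classical, 3 in the nonclassical and 3 in the macrophage list. They are therefore partly set by the rule and are a description, not a test of the label. The plasma cell list of 6 genes had 231, 2287 and 233 CPM, and 1 tumour 1 member held at least 10 UMIs of it. The dendritic cell list of 10 genes had 483, 300 and 52.8 CPM and the T cell list 174, 0 and 69.6 CPM. At least 5 UMIs of the dendritic cell list were found in 14, 2 and 1 of these cells. One tumour 1 member of 22475 UMIs, 19.3% of the UMIs of its 19 cells, held all 263 UMIs of Elane, Mpo, Prtn3 and Ctsg, the granule genes of immature granulocytes and monocyte precursors.

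Members were few and of unequal depth. Their median UMIs were 2422 at 5 months, 6825.5 in tumour 1 and 5330.5 in tumour 2, and the summed UMIs of the members were 449339, 297599 and 416874, or 116725 for tumour 1 without the collagen-rich cells. In the marker sum, 13 members at 5 months, 2 in tumour 1 and 5 in tumour 2 sat exactly at the limit of 3 UMIs, and 22, 7 and 8 cells lay 1 UMI below it. At the Lyz2 limit, 12, 10 and 0 members sat at 3 UMIs and 9, 19 and 6 cells at 2. A C1q UMI was held by 3 members at 5 months, 25 in tumour 1 and 25 in tumour 2. The C1q limit is a share of UMIs, so a deeper cell can hold a C1q UMI and pass. The class split was also narrow, since 40, 11 and 25 classical cells and 22, 3 and 4 nonclassical cells were within 1 UMI of it. Of all members, 48 had no UMI of Ly6c2, Ear2, Ace or Adgre4 and counted as classical by the rule. No barcode was shared between monocytes of different libraries.

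Monocytes made up 3.41% (exact 95% interval 2.90 to 3.97) of cells at 5 months, 1.36% (0.957 to 1.88) of those of tumour 1 and 4.08% (3.21 to 5.11) of tumour 2. Without the collagen-rich cells the tumour 1 share was 0.720% (0.434 to 1.12). These shares have different denominators because CD45+ cells were sorted into the 5 months library, so no direction is read from them. Among cells with at least 3 Lyz2 UMIs and no Epcam, Cd3e or Cd79a UMI, monocytes were 40.8% at 5 months, 1.91% in tumour 1 and 16% in tumour 2. Without the collagen-rich cells the tumour 1 value was 1.01%. Of these Lyz2 cells, C1q-high macrophages were 1684 of 1880 in tumour 1, 118 of 390 at 5 months and 269 of 450 in tumour 2.

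Classical cells were 47.8% (39.8 to 55.9) of the monocytes at 5 months and 88.9% (79.3 to 95.1) in tumour 2. In tumour 1 they were 55.6% (38.1 to 72.1) of all members and 89.5% (66.9 to 98.7) of the 19 members left without collagen-rich cells. The low nonclassical share of tumour 2 rests on 8 cells and that of the 19 tumour 1 cells on 2. Of these 2 cells, 1 held at least 10 UMIs of the dendritic cell list, so its label is uncertain. Ace, Adgre4, Cx3cr1 and Spn of the nonclassical list were not counted in either. The split uses raw UMIs, and tumour cells were deeper. Thinning to 2000 UMIs dropped the cells with fewer, 2049 of 4668 at 5 months, and the classical share there was then 63.2% of 87 members. Nonclassical cells were the shallower class at 5 months (median 2088 against 2679 UMIs). Loss of shallow cells and equal depth therefore cannot be told apart in this share. Intervals cover counting error only, and with 1 library at 5 months no test was made.

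The genes that set classical and nonclassical cells apart beyond the split were compared within libraries, where the sort is shared. Depth is not shared, with a median of 2679 UMIs in classical and 2088 in nonclassical cells at 5 months, and 5524 and 4176.5 in tumour 2. Since tumour 1 has 2 nonclassical cells without collagen-rich RNA, 5 months and tumour 2 carry this comparison. The nonclassical values of tumour 2 are sums over 8 cells of 2922 to 14336 UMIs and rest on few UMIs per gene. A value of 0 CPM there does not show that a gene was absent. The 7.20 CPM given below for 3 counts in tumour 2 is for all its members, and 3 counts are more CPM in these 8 cells. Of 2210 genes that reached 50 CPM in 1 of the classes in both libraries, 35 (1.58%) were at least 2-fold higher in classical cells in both, and 20 (0.905%) in nonclassical cells. The split fixes part of this contrast, so the values have no test. Over all 3 libraries and all members, 12 of 1893 genes (0.634%) were higher in classical and 4 (0.211%) in nonclassical cells.

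Of 10 genes of the classical list with enough counts outside the gate, 3 were at least 2-fold higher in classical cells of both libraries and 0 lower, among them Ccr2 and Ms4a4c. Ccr2, the receptor that lets monocytes leave the bone marrow, had 262 CPM in classical and 115 in nonclassical cells at 5 months, and 254 and 118 CPM in tumour 2. Il1r2, a decoy receptor for interleukin 1, had 68.7 and 13.9 CPM at 5 months, and 395 and 142 CPM in tumour 2. Both genes were thus higher in classical cells of both libraries, and Il1r2 was higher in tumour 2 in both classes.

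Another group, 3 members of the Ms4a family, which encodes membrane proteins with several spans, followed the classical side as well. Ms4a6d had 137 CPM in classical and 36.9 in nonclassical cells at 5 months, and 288 and 70.8 CPM in tumour 2. Ms4a4c had 249 and 120 CPM at 5 months, and 344 and 0 CPM in tumour 2. Ms4a6b had 262 and 97.0 CPM at 5 months, and 211 and 0 CPM in tumour 2. Of 13 chemokines and cytokines with enough counts, 2 were higher in classical cells of both libraries. Cxcl2, a neutrophil attractant, had 833 and 111 CPM at 5 months, and 2088 and 401 CPM in tumour 2. Ccl7, a Ccr2 ligand, had 107 and 9.24 CPM at 5 months, and 486 and 0 CPM in tumour 2, and 74.2% of its tumour 2 UMIs came from 1 cell.

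On the nonclassical side stood the factor that these cells depend on. Nr4a1 had 208 CPM in nonclassical and 51.5 in classical cells at 5 months, and 236 and 13.3 CPM in tumour 2. Tcf7l2, a transcription factor of the Wnt pathway, had 60.0 and 17.2 CPM at 5 months, and 118 and 18.7 CPM in tumour 2. Pglyrp1, a peptidoglycan-binding protein, had 277 and 55.8 CPM at 5 months, and 94.4 and 16.02 CPM in tumour 2. The metallothionein gene Mt2 had 268 and 68.7 CPM at 5 months, and 212 and 77.4 CPM in tumour 2. Nr4a1, Tcf7l2 and Pglyrp1 were the members of the nonclassical list outside the gate, of 9 with enough counts, that reached 2-fold in both libraries. Cd36, a fatty acid and lipoprotein receptor, did so at 5 months alone, with 309 CPM in nonclassical and 81.6 in classical cells, against 0 and 26.7 CPM in tumour 2. In the 8 nonclassical cells of tumour 2, 6 of the 20 genes of the nonclassical list were not counted. Cx3cr1 and Cd36 were among them.

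**Figure D2:**
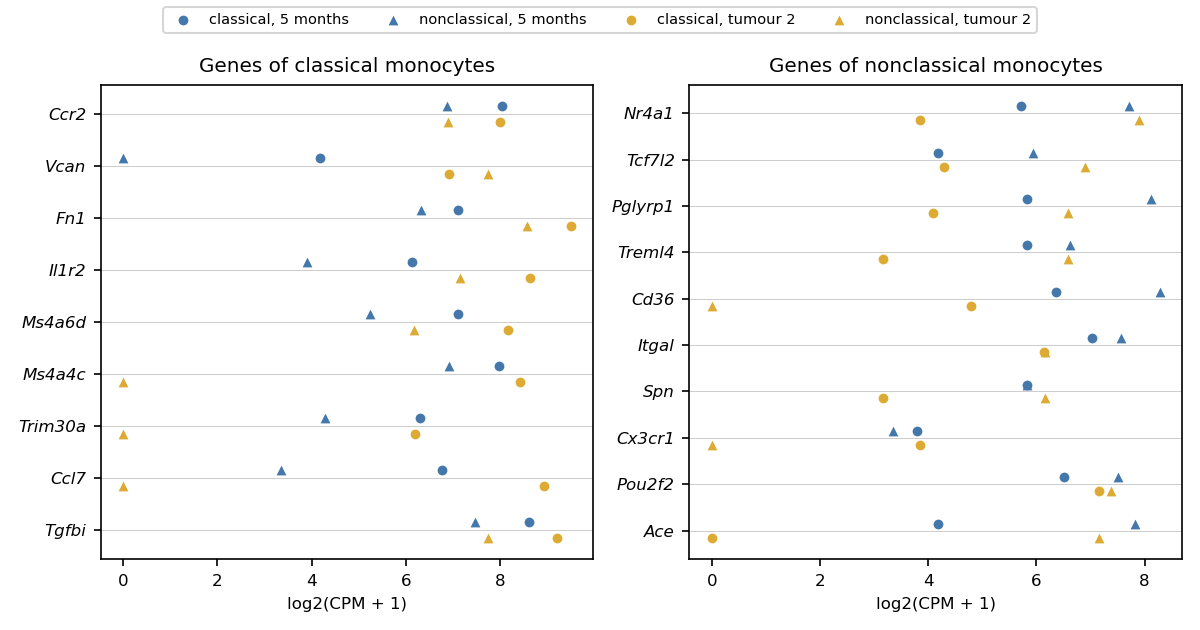
Level in classical (circles) and nonclassical (triangles) cells of 5 months and tumour 2, as log2(CPM + 1), for 9 genes of the classical and 10 of the nonclassical side. Nr4a1 is higher in nonclassical cells of both libraries (208 and 236 CPM against 51.5 and 13.3). Ccr2 is higher in classical cells of both (262 and 254 CPM against 115 and 118). The tumour 2 triangles are sums over 8 cells.

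The tumours were compared with 5 months on UMIs summed over the monocytes of each library, by edgeR's quasi-likelihood test with Benjamini-Hochberg adjustment at 0.05. With all 267 members, 0 of 5425 genes passed (0%), 116 had an unadjusted p under 0.05, and DESeq2 called 14 genes higher and 1 lower in tumours. Without the 17 collagen-rich cells, a choice made after the data were seen, 101 of 5032 genes passed (2.01%), 68 higher in tumours (1.35%) and 33 lower (0.656%). The same test on cells with at least 5 Lyz2 UMIs (145, 17 and 71 cells, 1 of them collagen-rich) called 129 of 4760 (2.71%), 86 higher (1.81%) and 43 lower (0.903%). Leaving out genes of the gate, 66 rose and 30 fell without collagen-rich cells, and 56 and 24 of them also passed with at least 5 Lyz2 UMIs. In the paragraphs that follow, values, folds and calls are of the 250 cells without the collagen-rich ones, standard errors follow each log2 fold change, and a gene that failed with at least 5 Lyz2 UMIs is named as such. The spread comes from the 2 tumours alone (1 residual degree of freedom).

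Of 10 sets of cells fitted, 5 gave calls. They were those without collagen-rich cells, with at least 5 Lyz2 UMIs, classical cells only, cells with no C1q UMI, and cells chosen after thinning to 2000 UMIs. The thinned counts chose the cells of that last set, but its fit summed their full counts and does not equalise depth. The other 5, all members, nonclassical cells only, doublets removed, stricter cell limits and a marker sum of at least 5, called 0 genes each. In the 5 sets with calls the same 18 genes outside the gate were higher in tumours and 0 were lower, a group picked out after the values were seen. They were AA467197, Apoe, Arg1, Axl, C5ar1, Cxcl3, Dab2, Ecm1, Fcgr2b, Ifitm1, Inhba, Lcn2, Mmp19, Pf4, Saa3, Spint1, Spp1 and Wfdc21. Classical cells alone called 23 of 3676 genes higher (0.626%) and 3 lower (0.0816%). For genes that did not pass there, a larger classical share and more RNA per cell cannot be told apart in sums of both classes.

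Genes of macrophage activation in tumours held the most calls. Of 20 tested members of that list 8 rose and 1 fell, with a median log2 fold change of 1.76, against 0.04 over all genes tested. Apoe, a lipid carrier, had 1070 CPM at 5 months, and 6460 and 3850 CPM in tumours 1 and 2, a log2 fold change of 2.16 ± 0.41 (adjusted p = 3.07e-05). It was found in 88 of the 159 cells at 5 months, 19 of 19 in tumour 1 and 66 of 72 in tumour 2. Apoe is far more abundant in macrophages, at 29675, 28367 and 27703 CPM, and T cells (1075, 9 and 94 cells) had 43.3, 546 and 232 CPM. Spp1, which encodes osteopontin, had 20.03 CPM at 5 months against 1499 in tumour 1 and 206 in tumour 2 (5.27 ± 0.75, adjusted p = 1.55e-09). Both tumour values lay above 5 months and that of tumour 1 was much the higher, and T cells of tumour 1 had 341 CPM.

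Arg1, the arginase of suppressive myeloid cells, was not counted at 5 months and had 308 CPM in tumour 1 and 357 in tumour 2. Against 3 counts over the 5 months cells it was at least 46.2-fold higher in tumour 1 and 53.5-fold in tumour 2. It was found in 10 of 19 and 16 of 72 cells, and 1 cell of tumour 2 held 59.7% of the UMIs there. T cells had 0.364, 22.7 and 7.47 CPM, and macrophages 1.998, 368 and 193 CPM. Vegfa, an angiogenic growth factor, had 15.6, 137 and 101 CPM (2.75 ± 0.82, adjusted p = 0.0409). Mmp14, a membrane-bound collagenase, had 0 CPM at 5 months, and 42.8 and 64.8 CPM in tumours 1 and 2, at least 6.42-fold and 9.70-fold higher. Chil3, a chitinase-like protein of alternatively activated myeloid cells, separated the tumours, with 160 CPM at 5 months against 154 in tumour 1 and 3876 in tumour 2 (3.51 ± 0.55). Tumour 1 lay at the 5 months level, and with all members but without tumour 2 the difference was -1.34. The member that fell, Retnla, had 583, 163 and 0 CPM and came from 5 cells at 5 months and 1 in tumour 1.

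Some receptors for complement, antibodies and chemokines rose. Of 9 tested Fc and complement receptors 4 rose and 0 fell, with a median log2 fold change of 1.31. C5ar1, the receptor for the complement fragment C5a, had 37.8 CPM at 5 months, and 308 and 559 CPM in tumours 1 and 2 (3.40 ± 0.72, adjusted p = 0.000359). C3ar1, the C3a receptor, had 13.4, 146 and 300 CPM (3.93 ± 0.84, adjusted p = 0.000413). Both tumours lay above 5 months for the pair. Fcgr2b, the inhibitory receptor for IgG, had 64.5, 394 and 410 CPM (2.51 ± 0.68, adjusted p = 0.0150), and Fcgr1, the high-affinity receptor, had 28.9, 146 and 252 CPM (2.67 ± 0.76, adjusted p = 0.0281). Of 9 tested chemokine and trafficking receptors 3 rose, C5ar1, C3ar1 and Ccr1, a receptor for several CC chemokines with 75.7, 291 and 494 CPM (2.26 ± 0.67, adjusted p = 0.0391). Ccr2 had 191, 163 and 240 CPM and did not pass, nor did Csf1r, the receptor that monocytes need to survive, with 254, 163 and 228 CPM. None of 16 tested growth factor receptors passed.

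Of 24 tested chemokines and cytokines 6 rose and 0 fell, with a median of 1.08. In classical cells only, 1 of 22 passed (median 1.45). Cxcl2 had 485 CPM at 5 months against 2159 in tumour 1 and 1917 in tumour 2 (1.95 ± 0.49, adjusted p = 0.00619), and T cells of tumour 1 had 1251 CPM. Ccl2, the main Ccr2 ligand, had 209, 720 and 1005 CPM (1.92 ± 0.58, adjusted p = 0.0464). Its tumour 2 value was uneven, with 62.3% of the UMIs in 1 cell. Ccl7 had 60.1, 360 and 437 CPM from 5 to 7 cells in each library. Cxcl1 had 31.2, 540 and 86.4 CPM, and 84.1% of the tumour 1 UMIs were from 1 cell. Cxcl3 had 0, 326 and 45.6 CPM, at least 48.8-fold and 6.83-fold higher than 5 months. Il1b, interleukin 1 beta, had 846, 668 and 3109 CPM and did not pass.

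Other genes that passed were picked by the size of their change or from the 18 genes above and do not stand for a group. Saa3, an acute phase apolipoprotein, had 0 CPM at 5 months, and 171 and 437 CPM in tumours 1 and 2, at least 25.7-fold and 65.4-fold higher. Lcn2, the iron-withholding lipocalin, had 0, 137 and 185 CPM, at least 20.5-fold and 27.7-fold higher. Neither was counted at 5 months and both were counted in both tumours. The 11-gene neutrophil list, which holds S100a8 and S100a9 of the gate, moved the same way, with 71.2, 643 and 1080 CPM, and T cells had 8.74, 45.5 and 72.2 CPM of Lcn2. Ly6g, the defining neutrophil marker, was at 0 at 5 months and in tumour 1. In tumour 2 each of the 11 genes was counted, Ly6g among them. The part of neutrophil RNA was not tested. Slpi, a secreted inhibitor of leukocyte proteases, had 122, 1020 and 552 CPM (2.56 on the log2 scale), and T cells of tumour 1 had 341 CPM. Inhba, a subunit of activin, had 0, 334 and 40.8 CPM, at least 50.04-fold and 6.11-fold higher. Mmp19, a matrix metalloproteinase, had 28.9, 1902 and 194 CPM, and Axl, a receptor for apoptotic cells through Gas6, had 4.45, 163 and 84.0 CPM. S100a8, a gene the gate used, had 2.23, 420 and 605 CPM, and is not read as a result.

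Of 10 tested genes of the coagulation and matrix list 3 rose, and all 3 encode matrix proteins. Fn1, fibronectin, had 109, 822 and 691 CPM (2.67 ± 0.63, adjusted p = 0.00209), Vcan, a matrix proteoglycan, had 8.90, 42.8 and 130 CPM (3.21 ± 0.86), and Ecm1 had 6.68, 51.4 and 242 CPM (4.35 ± 0.94). Thbs1, thrombospondin 1, had 1144, 1713 and 3279 CPM and did not pass. Of 17 tested genes of hypoxia and glycolysis 2 rose and 0 fell, with a median of 1.56. They were Tpi1, triosephosphate isomerase, with 71.2, 343 and 497 CPM (2.44 ± 0.67, adjusted p = 0.0182), and Hilpda, a lipid droplet protein induced by low oxygen, with 107, 420 and 640 CPM (2.19 ± 0.64, adjusted p = 0.0328). None of 16 tested genes of oxidative phosphorylation passed (median 0.36).

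**Figure D3:**
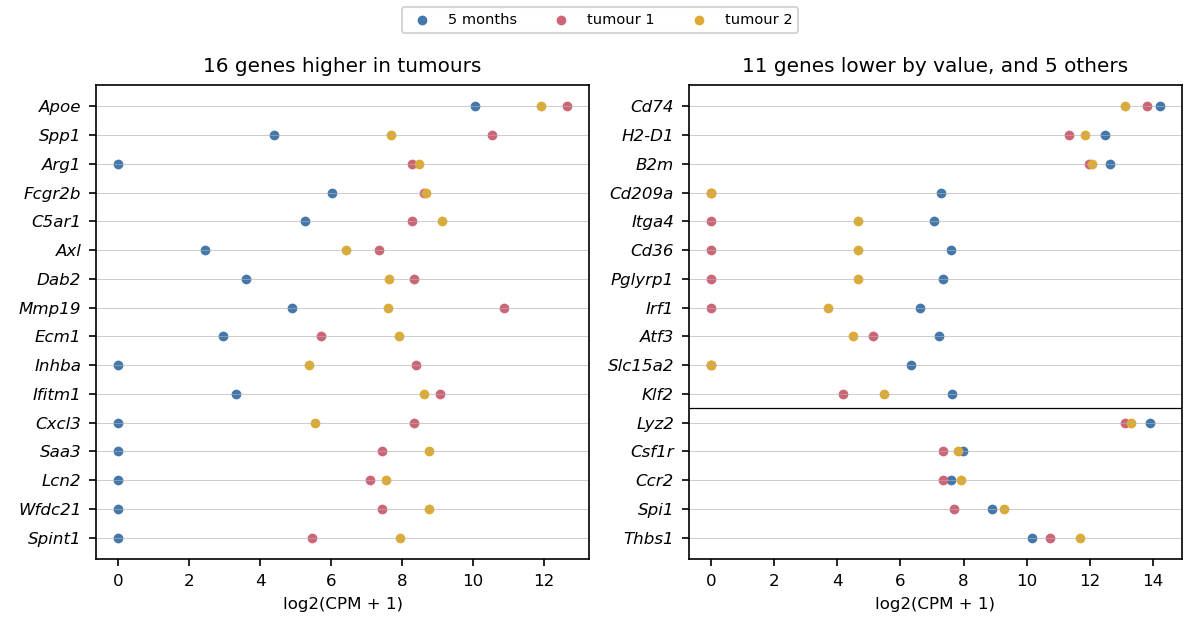
Level in the monocytes of each library without collagen-rich cells, as log2(CPM + 1), for 16 of the genes higher in tumours in all 5 sets of cells (left), and for 11 genes with lower values and 5 other monocyte genes, split by a line (right). Both tumour points lie to the right of 5 months for every gene on the left, with Apoe at 1070 CPM against 6460 and 3850, whereas Cd209a and Slc15a2 were not counted in either tumour.

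Fewer genes fell, and several were not counted in the 19 tumour 1 cells, where 3 counts correspond to 25.7 CPM. Cd209a, a lectin of monocyte-derived dendritic cells, had 154 CPM at 5 months from 14 cells and 0 in both tumours, at least 5.97-fold lower in tumour 1 and 21.3-fold in tumour 2. Slc15a2, a peptide transporter, had 80.1 CPM from 31 cells and 0 in both tumours, at least 3.12-fold and 11.1-fold lower. The dendritic cell list was higher at 5 months (483 CPM) than in the tumours (300 and 52.8 CPM), and its part in Cd209a was not tested. Itga4, the integrin alpha 4 chain, had 134, 0 and 24.0 CPM (-3.09 ± 0.71, adjusted p = 0.00153). Klf2, a factor of quiescence, had 198, 17.1 and 43.2 CPM (-2.66 ± 0.68, adjusted p = 0.00814), but its adjusted p was 0.293 with at least 5 Lyz2 UMIs. Irf1, an interferon-response factor, had 97.9, 0 and 11.99 CPM, and Atf3, a stress-response factor, had 149, 34.3 and 21.6 CPM (-2.65 ± 0.70, adjusted p = 0.0123). These 6 genes were lower in both tumours.

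Genes of the nonclassical side were lower in the tumours beside the smaller share of nonclassical cells. Of 14 tested members of the nonclassical list outside the gate 2 fell and 0 rose, with a median log2 fold change of -1.66. Pglyrp1 (162, 0 and 24.0 CPM, -3.38 ± 0.71) and Cd36 (191, 0 and 24.0 CPM, -3.62 ± 0.73) were the members that fell. Nr4a1 had 127, 68.5 and 36.0 CPM and Treml4 75.7, 25.7 and 16.8 CPM, and neither passed. Fewer nonclassical cells and less RNA per cell cannot be told apart in these sums. In classical cells alone Cd36 had 81.6 CPM at 5 months and 26.7 in tumour 2. As a description of the gate, Ear2 had 396, 42.8 and 43.2 CPM, Ace 118, 0 and 14.4 CPM, Adgre4 138, 8.57 and 16.8 CPM, Ly6c2 505, 574 and 974 CPM, and Plac8 3274, 1816 and 1610 CPM.

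Antigen presentation was lower by value without passing. Of 7 tested MHC class II genes 0 passed (median -0.73), and of 11 class I genes 0 passed (median -0.50). Cd74, the invariant chain, had 18908, 14204 and 8871 CPM with an adjusted p of 0.0815, and it fell with at least 5 Lyz2 UMIs (-0.97, adjusted p = 0.000521). In cells chosen after thinning to 2000 UMIs, with their full counts summed, its log2 fold change was -0.03 (adjusted p = 0.994). With no C1q UMI the adjusted p was 0.134. With at least 5 Lyz2 UMIs 2 of the class I genes fell, H2-D1 (5695, 2613 and 3701 CPM) and B2m (6352, 4027 and 4275 CPM). H2-Aa, a class II alpha chain, had 6792, 5166 and 3682 CPM. Per cell, class II genes took a median of 1.61% of UMIs at 5 months, 1.53% in tumour 1 and 0.455% in tumour 2. Tumour 1 thus lay close to 5 months in this measure and tumour 2 below both.

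Monocytes and C1q-high macrophages of the same library were compared next; the gate sets C1q, S100a8 and S100a9 and the monocyte markers apart. At least 2-fold differences in all 3 libraries were found for 44 of 2103 genes higher in monocytes (2.09%) and 67 lower (3.19%) without collagen-rich cells, and for 33 (1.59%) and 64 (3.09%) of 2069 with all members. No test was made. S100a4, a calcium-binding protein of migrating cells, had 1028, 557 and 1458 CPM in monocytes and 156, 24.9 and 75.8 CPM in macrophages of 5 months, tumour 1 and tumour 2. Hp, haptoglobin, had 114, 266 and 252 CPM in monocytes and 2.00, 10.1 and 15.9 CPM in macrophages. Ms4a7, a macrophage gene, had 8.90, 85.7 and 16.8 CPM in monocytes and 951, 860 and 643 CPM in macrophages.

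Whether the tumour difference itself was larger in monocytes than in macrophages was tested by the interaction of class and tumour with library as a term, again with edgeR. With all members, 66 of 6436 genes passed (1.03%), 56 with a more positive difference in monocytes (0.87%) and 10 with a more negative one (0.155%). Without collagen-rich cells 52 of 6138 passed (0.847%), 36 (0.587%) and 16 (0.261%), and with at least 5 Lyz2 UMIs 44 and 23 of 5995 (1.12% in all, 0.734% and 0.384%). The DESeq2 test of the same interaction with all members called 5 of 6436. In all 3 fits 25 genes passed with the same sign, and 15 of these belong to the gene lists used here, 10 more positive and 5 more negative in monocytes.

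The chemokines show what such a difference is made of. Cxcl2 rose from 485 CPM to 2159 and 1917 CPM in monocytes, while macrophages had 3998 CPM at 5 months and 682 and 1813 CPM in the tumours, a difference of 3.84 ± 0.40 on the log2 scale (adjusted p = 8.62e-10). Apoe rose in monocytes and had 29675, 28367 and 27703 CPM in macrophages (2.24 ± 0.28, adjusted p = 1.59e-07). C5ar1 had 380 CPM in macrophages at 5 months and 229 and 406 CPM in the tumours, so that the levels of monocytes, at first 37.8 CPM, were above those of macrophages in both tumours (3.71 ± 0.51, adjusted p = 1.38e-06). In all 3 genes the macrophages of 5 months lay above the monocytes of 5 months.

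Other genes had the opposite sign. Of 17 tested genes of the interferon response 2 were more negative in monocytes, Ifitm3 and Rsad2, and 0 more positive. Fn1 rose in monocytes from 109 to 822 and 691 CPM, but in macrophages from 3.996 to 1088 and 397 CPM (-4.60 ± 0.75, adjusted p = 5.27e-05). T cells had 0.728, 45.5 and 57.3 CPM of Fn1. The 3.996 CPM in macrophages of 5 months rest on very few UMIs, so the size of the Fn1 difference is uncertain. Ifitm3, an interferon-induced membrane protein, had 2989, 1979 and 1845 CPM in monocytes and 97.9, 755 and 578 CPM in macrophages (-3.46 ± 0.38, adjusted p = 3.07e-09), against 23.7, 22.7 and 94.6 CPM in T cells. Thbs1 had 1144, 1713 and 3279 CPM in monocytes and 79.9, 572 and 733 CPM in macrophages (-2.02 ± 0.39, adjusted p = 0.00134), with 1.82, 0 and 64.7 CPM in T cells. As a ratio, the macrophages of both tumours lay nearer to the monocyte level than those of 5 months for these 3 genes.

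**Figure D4:**
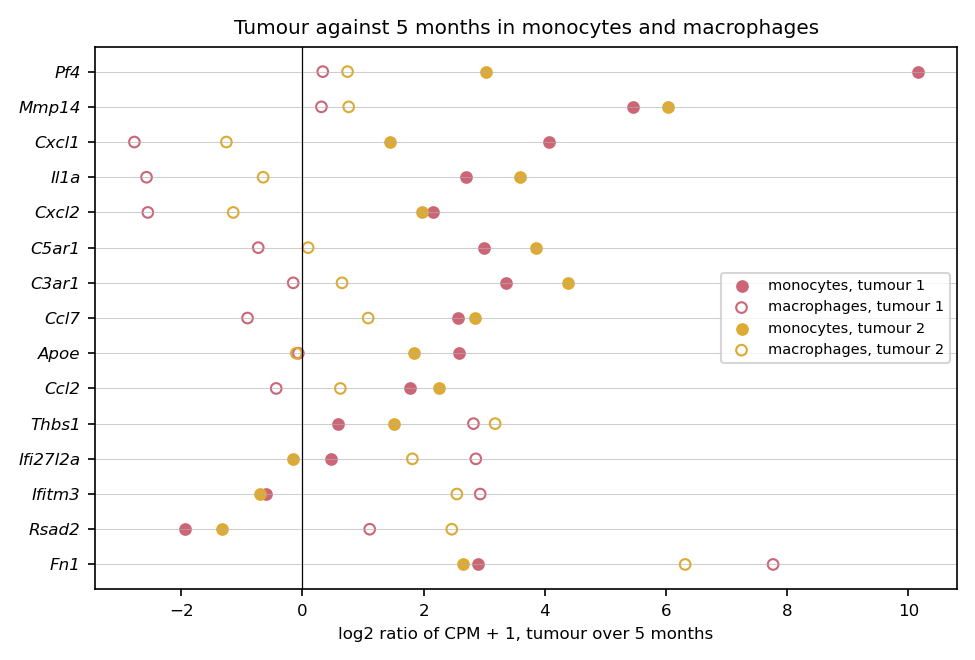
Difference of each tumour from 5 months, as the log2 ratio of CPM + 1, in monocytes without collagen-rich cells (filled) and in C1q-high macrophages (open), for the 15 listed genes that passed in all 3 interaction fits. Cxcl2 is above 0 in monocytes and below 0 in macrophages of both tumours, whereas Fn1 and Ifitm3 are more positive in macrophages.

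The 2 tumours were set side by side without a test. Without collagen-rich cells and after adding 1 CPM, 432 of 3031 genes were at least 2-fold higher in tumour 1 (14.3%) and 462 at least 2-fold higher in tumour 2 (15.2%). Part of the tumour 1 side came from single cells, since 1 cell held 99.5% of the 1662 CPM of Jchain, the joining chain of plasma cell antibodies, 85.0% of the 171 CPM of Ccl8 and 89.5% of the 1139 CPM of Pf4, platelet factor 4. Tumour 2 was higher in Chil3 (3876 against 154 CPM) and in Pgf, a placental growth factor with 122 against 0 CPM. Cebpb, a myeloid transcription factor, had 334 CPM in tumour 1 monocytes, against 2181 at 5 months and 3094 in tumour 2. Macrophages showed the same order with 257 CPM in tumour 1, 1027 at 5 months and 1314 in tumour 2, so for Cebpb tumour 1 stood apart in both cell classes.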

How the data were processed

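The deposited values are UMI counts per gene and cell barcode from Chromium 3' v2 libraries per the labels, made with Cell Ranger on mm10 (GRCm38) per the submitters' processing notes (version not given in the sources used here). A prefix of gene names at 5 months was removed and the 27998 genes shared by the libraries were used (columns of other series: none). Members, lists and text genes were chosen with earlier results of these data known. UMIs were summed per library and class, since cells are not replicates. Fits used edgeR 4.0.16 in R 4.3.3 (TMM factors, filterByExpr, quasi-likelihood F test, Benjamini-Hochberg over all tested genes). They were also run on simulated data set to vary less than all members did in the tumour comparison. That run does not show how well they perform at the spread found here. DESeq2 1.42.0 was an alternative. With 2 tumours and 1 library at 5 months, the spread is that between the tumours, which may be partly technical, and the lone library is assumed to vary as they do. The edgeR coefficient of variation between samples was 0.653 over all members. CPM scale each gene's UMIs to the total of the summed cells; without collagen-rich cells 3 counts correspond to 6.68 (5 months), 25.7 (tumour 1) and 7.20 CPM (tumour 2). Genes named were members of the lists, those with the largest changes that passed (12 each way), those at least 2-fold apart after adding 1 CPM in each library with at least 50 CPM (12 for the classes, 8 otherwise), and those in every set of calls. Doublets were kept in the values shown; Scrublet's own threshold marked 1, 0 and 8 cells, so removal at 0.8% per 1000 barcodes was an alternative. Strand was not stated; the kit reads 3' ends. Intervals are exact (Clopper-Pearson) and cover counting error only.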

Additional observations from a re-analysis of the deposited data

Results flagged for a closer look

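For 15 listed genes the tumour difference was not the same in monocytes and macrophages by the test of that difference (edgeR interaction, without collagen-rich cells). On the log2 scale, monocytes minus macrophages, it was 2.24 for Apoe, 3.68 for C3ar1, 3.71 for C5ar1, 1.85 for Ccl2, 2.48 for Ccl7, 4.81 for Cxcl1, 3.84 for Cxcl2, 4.66 for Il1a, 9.55 for Mmp14 and 11.58 for Pf4. It was -4.60 for Fn1, -2.24 for Ifi27l2a, -3.46 for Ifitm3, -3.71 for Rsad2 and -2.02 for Thbs1. The values of Mmp14 and Pf4 rest on 0 UMIs in 5 months monocytes and are no measure of size. That of Fn1 rests on very few UMIs in 5 months macrophages, and its size is uncertain. Il1a came from 1 cell in tumour 1 and Pf4 mostly from 1.

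In genes listed for the 5 months library alone (694 genes not used in the comparisons), its monocytes held 458 UMIs, or 0.102% of their UMIs, and T cells 0.592%. Igkc, the kappa light chain, gave 238 of them, in 114 of 159 cells.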

How the results depend on the processing

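Results of the classes and of the tumour comparison moved with the choice of cells. Genes past the threshold in tumours against 5 months were 0 with all members, 15 with the DESeq2 test and 233 with no filter on low counts. They were 26 in classical cells only, 129 with at least 5 Lyz2 UMIs, 85 with no C1q UMI and 101 without collagen-rich cells. They were 70 in cells chosen after thinning to 2000 UMIs, with full counts summed. They stayed at 0 with either other scaling, in nonclassical cells only, with doublets removed, with the stricter cell limits and with a marker sum of at least 5. Leaving out a tumour leaves no residual degree of freedom and gives values only. The interaction count of 66 was 38 with library size alone, 38 with no filter on low counts and 5 with the DESeq2 test. The 16 genes at least 2-fold apart between classes became 39 to 214 when 1 library was left out (39 without tumour 2, 55 without tumour 1, 214 without 5 months), 29 with at least 1000 genes and at most 5% mitochondrial UMIs, and 33 with at least 5 Lyz2 UMIs; thinned cells gave no value, because tumour 1 then had no nonclassical cell.

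The monocyte share at 5 months was 4.54% with the stricter cell limits. In tumour 1 it was 0.644% with at least 5 Lyz2 UMIs, 0.417% with no C1q UMI, 0.227% after thinning and 0.720% without collagen-rich cells, and in tumour 2 it was 2.66% with no C1q UMI and 2.61% after thinning. The classical share at 5 months was 65.7% with the stricter limits and 63.2% after thinning. In tumour 1 it was 88.2% with at least 5 Lyz2 UMIs, 81.8% with no C1q UMI, 100% after thinning and 89.5% without collagen-rich cells. Gene directions reversed for Chil3, which was -1.34 without tumour 2 and 4.39 without tumour 1 on the log2 scale,, Fcgr2b in nonclassical cells only (-0.20) and Retnla in classical cells only (6.93). The causes were not tested, except that the collagen-rich cells were removed by construction in 1 setting. No paired analysis was possible because the groups share fewer than 2 replicate numbers. Depth limits tumour 1 most, where 19 cells hold 116725 UMIs.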

Other observations

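Groups of genes by function not described above gave few calls between tumours and 5 months without collagen-rich cells. Lists of cell type markers, without genes of the gate, gave more for their size. In tumours 3 of 4 tested plasma cell genes, 2 of 7 macrophage genes and 3 of 12 classical monocyte genes rose. Lower were 2 of 3 dendritic cell genes, 1 of 6 plasmacytoid dendritic cell genes and 1 of 5 T cell genes. None of 4 neutrophil and 3 epithelial genes passed. The plasma cell calls do not stand for both tumours. With at least 5 Lyz2 UMIs, 1 of 3 tested plasma cell genes rose and 1 fell. Tumour 2 stayed near the level of 5 months in the sum of that list (233 against 231 CPM). The higher sum of tumour 1 (2287 CPM) included 1 cell with at least 10 UMIs of the list. Of 4 tested G2 and M phase genes 1 rose, Top2a, and 76.2% of its tumour 1 UMIs came from 1 cell. None of 4 S phase genes, 12 survival genes and 13 checkpoint genes passed. Of 16 monocyte transcription factors Klf2 fell and none rose. Spi1, the master factor of the myeloid lineage, had 481, 206 and 626 CPM in the order 5 months, tumour 1, tumour 2. Of 19 genes of NF-kB feedback and the inflammasome 1 fell, Casp4, the caspase that senses lipopolysaccharide in the cell, with 97.9, 17.1 and 16.8 CPM.

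Pfn1, the actin-binding protein profilin, had 1934 CPM at 5 months against 103 in tumour 1 and 2521 in tumour 2 in monocytes, and 2198, 99.9 and 2250 CPM in macrophages. It was picked out after its values were seen, and its low level in tumour 1 was found in both classes.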
